A study of Mus musculus with 12 samples.

Results

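C1qa, C1qb, C1qc, Csf1r, Cx3cr1, Tyrobp, Fcer1g, Aif1, Mrc1 and Ctss are genes used to recognise macrophages and microglia, and their levels were followed across 12 libraries of sorted embryonic spiral ganglion neurons. The members were taken by symbol, and each of the 10 matched 1 of the 25674 gene rows of the count table. The libraries came from E14.5 mouse embryos, of either sex and of mixed C57BL/6 and sv129 background. The 6 control libraries carried the Neurod1-Cre transgene and the Rosa26 tdTomato reporter, and the 6 libraries labelled Isl1CKO carried in addition 2 loxP-flanked alleles of Isl1, a LIM-homeodomain transcription factor of these neurons. Both groups therefore share the Cre transgene, made from a bacterial artificial chromosome, and the reporter, and Isl1 is removed only where Cre has been active. For each library, 100 tdTomato-positive cells were sorted from the spiral ganglia of both ears of 1 embryo. One label field calls the samples technical replicates, whereas the protocol and the design text describe separate embryos, and they were treated as separate embryos.

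Macrophages are phagocytes that settle in embryonic tissues, the developing inner ear included, and microglia are their counterparts in the central nervous system. They depend on signalling through the receptor CSF1R, survey the tissue through receptors such as CX3CR1 and MRC1, and pass signals from many surface receptors through the adaptors TYROBP and FcRγ. They are also a main source of the complement protein C1q, which tags debris and, in the developing brain, synapses for removal. None of these genes is a marker of neurons.

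Total counts ran from 11895603 to 13857480 per library, and a count of 0 allows up to 3 counts, or 0.216 to 0.252 CPM, a gene's counts scaled to library size. All 16 neuron markers examined, such as Tubb3 and Elavl3, had more than 3 counts in each of the 12 libraries, and their summed level was 18967 to 23139 CPM. Isl1 averaged 1391 ± 184 CPM (SD, n = 6) in Isl1CKO and 1538 ± 217 CPM (SD, n = 6) in control libraries, which did not separate the genotypes at the level of whole-gene counts. Libraries Isl1CKO 2, 3 and 5 stood apart. They held Xist, the RNA of the inactive X chromosome, at 62.9, 77.8 and 132 CPM together with Y-linked genes at a mean of 61.0, 87.3 and 35.7 CPM, although each library is described as 1 embryo. In each of the other 9 libraries, either Xist was at most 0.373 CPM or the mean of the Y-linked genes did not exceed 0.426 CPM. Summaries of the genotype differences, the median correlation of the members and the limits of their shares are also given without these 3 libraries. Several other ranges, such as those of the pairwise correlations and of each gene's level, are given only with them.

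The promoters of the members are shown as a description. Whether they bear on the joint movement of the genes from library to library was not tested. The RefSeq promoter table for GRCm38.p6 matched 7 of the 10 members, namely C1qb, C1qc, Cx3cr1, Fcer1g, Aif1, Mrc1 and Ctss. The core of the binding site of PU.1, the transcription factor encoded by Spi1 that directs the macrophage lineage, was searched as GAGGAA on both strands, where its reverse complement is TTCCTC. It was present in 5 of the 7 promoters (C1qb, C1qc, Aif1, Mrc1 and Ctss) and in 28.3% of 32851 mouse promoters of the same length. The longer GAGGAAGT, which contains GAGGAA, was present in the promoters of C1qc and Ctss and in 3.20% of all. GAAA, then 2 bases of any kind and GAAA again, a form of the element bound by interferon regulatory factors, was present in Aif1 and Ctss and in 3.44% of all, and TTGCNNAA, a form of the C/EBP element, was in 0 of the 7 and in 10.8% of all. C1qc and Ctss shared the 12 bases CACTTCCTCATT, their longest common string, which 12 of the 32851 promoters held on either strand (0.0365%). That string was chosen after both sequences were seen. A match of letters is a description and not evidence of binding. The 4 sequences below run 5′ to 3′ on the strand of the gene, from 250 bases before to 30 bases after the start, with matches to GAGGAA and, in Ctss, to the spaced GAAA pair in capitals. C1qc lies on the minus strand at chr4:136892885-136893164, C1qb on the minus strand at chr4:136886171-136886450, Ctss on the plus strand at chr3:95526536-95526815 and Mrc1 on the plus strand at chr2:14229164-14229443.
C1qc: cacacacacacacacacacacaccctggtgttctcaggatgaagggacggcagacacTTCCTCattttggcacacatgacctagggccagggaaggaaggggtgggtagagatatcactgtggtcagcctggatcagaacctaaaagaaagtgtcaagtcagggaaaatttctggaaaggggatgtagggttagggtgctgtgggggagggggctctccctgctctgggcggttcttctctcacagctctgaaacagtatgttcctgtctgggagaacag
Ctss: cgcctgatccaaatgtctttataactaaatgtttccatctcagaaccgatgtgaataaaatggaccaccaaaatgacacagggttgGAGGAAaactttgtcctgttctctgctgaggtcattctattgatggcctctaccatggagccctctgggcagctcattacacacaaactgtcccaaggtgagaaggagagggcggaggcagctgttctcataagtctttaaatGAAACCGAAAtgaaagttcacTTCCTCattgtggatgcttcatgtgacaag
C1qb: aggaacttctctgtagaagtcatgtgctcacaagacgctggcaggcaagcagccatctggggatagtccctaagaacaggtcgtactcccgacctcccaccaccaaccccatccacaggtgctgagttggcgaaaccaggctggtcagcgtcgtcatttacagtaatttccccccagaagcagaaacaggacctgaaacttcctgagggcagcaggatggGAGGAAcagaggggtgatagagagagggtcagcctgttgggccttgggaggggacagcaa
Mrc1: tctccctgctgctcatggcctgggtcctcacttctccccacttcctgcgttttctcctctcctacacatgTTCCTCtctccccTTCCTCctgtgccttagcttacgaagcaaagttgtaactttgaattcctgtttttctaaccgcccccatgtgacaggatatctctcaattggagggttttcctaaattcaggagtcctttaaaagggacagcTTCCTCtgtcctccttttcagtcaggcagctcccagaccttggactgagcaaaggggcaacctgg

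The summed counts of the 10 genes divided the libraries unevenly, and not by genotype. The sum was 2006, 17, 1333, 11194, 12 and 3583 counts in Isl1CKO 1 to 6, and 5334, 26, 92, 980, 25 and 81 counts in control 1 to 6. Libraries Isl1CKO 1, 3, 4 and 6 and controls 1 and 4 thus held 980 to 11194 counts, whereas the other 6 libraries, which were of both genotypes, held 12 to 92. Even in the library with the most, Isl1CKO 4, the members made up 0.0827% of all counts, and in Isl1CKO 5 they made up 8.80e-05%. The level varied 11.5-fold in summed CPM among those 6 richest libraries alone. Depth did not order the libraries this way, since Isl1CKO 5, with 13641272 total counts, held the fewest member counts. In pools of this kind, fewer cells of a type and less RNA per cell cannot be told apart.

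**Figure D1:**
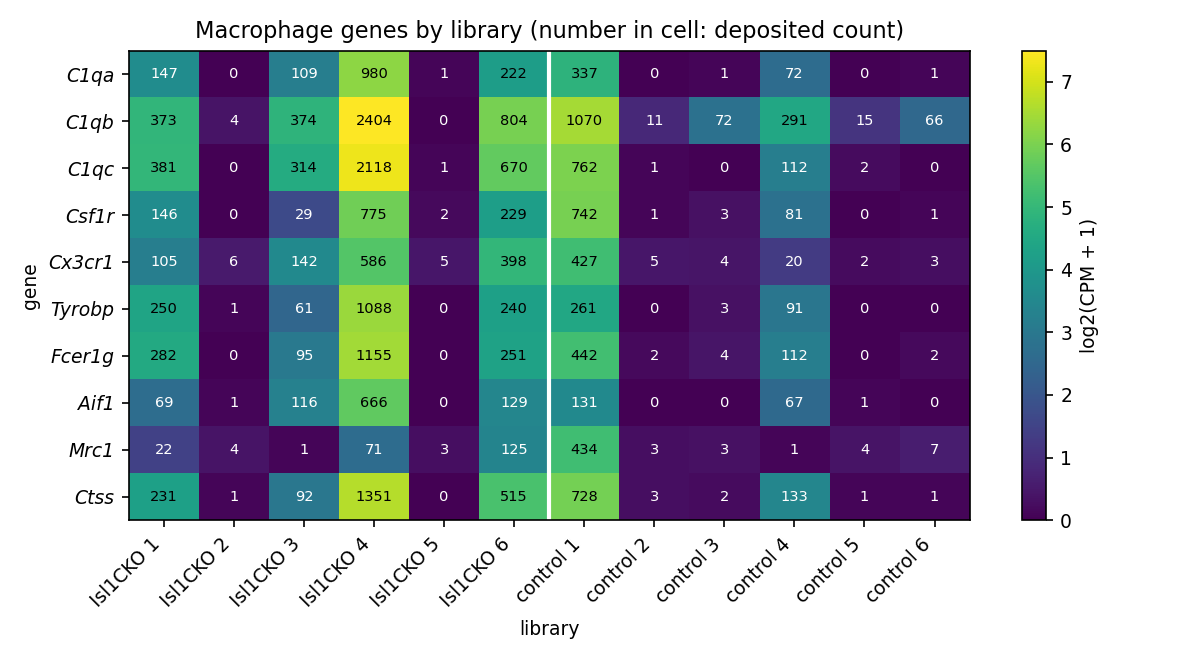
Counts of the 10 macrophage genes (rows) in each of the 12 libraries (columns, grouped by genotype), with the count printed in each cell and the colour showing log2(CPM + 1). Isl1CKO 1, 3, 4 and 6 and controls 1 and 4 carry counts for almost all of the genes. The other 6 libraries carry few, apart from C1qb in controls 2, 3, 5 and 6 (11 to 72 counts).

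The 3 chains of C1q, the recognition molecule of the classical complement pathway, are encoded side by side on chromosome 4, with C1qa at chr4:136895917-136898803, C1qc at chr4:136889804-136893065 and C1qb at chr4:136880129-136886187 (GRCm38). C1qa had 147, 0, 109, 980, 1 and 222 counts in Isl1CKO 1 to 6 and 337, 0, 1, 72, 0 and 1 in control 1 to 6. C1qc had 381, 0, 314, 2118, 1 and 670 counts in Isl1CKO and 762, 1, 0, 112, 2 and 0 in control libraries. Both genes were therefore at 2 counts or fewer in the same 6 libraries and at 72 or more in the other 6. C1qb, the most abundant member, had 373, 4, 374, 2404, 0 and 804 counts in Isl1CKO and 1070, 11, 72, 291, 15 and 66 in control libraries. It departed from the other chains in controls 3 and 6, where its 72 and 66 counts stood against 1 count of C1qa and 0 of C1qc in each. Where all chains were present, the ratio of C1qb to C1qa counts ran from 2.45 (95% interval 2.28 to 2.64) in Isl1CKO 4 to 4.04 (3.11 to 5.31) in control 4. These exact intervals cover counting error only, since PCR copies of a molecule were counted like separate molecules.

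Of the receptors, Csf1r, the receptor for the growth factors CSF1 and IL-34, had 146, 0, 29, 775, 2 and 229 counts in Isl1CKO 1 to 6 and 742, 1, 3, 81, 0 and 1 in control 1 to 6. Cx3cr1, the receptor for fractalkine, had 105, 6, 142, 586, 5 and 398 counts in Isl1CKO and 427, 5, 4, 20, 2 and 3 in control libraries. Both receptors were highest in Isl1CKO 4 and control 1, and both were at 6 counts or fewer in the 6 libraries with few member counts. Their balance was not constant. Cx3cr1 exceeded Csf1r 4.90-fold in Isl1CKO 3 (95% interval 3.27 to 7.58), whereas the ratio was 0.247 (0.143 to 0.407) in control 4. Isl1CKO 3 is one of the libraries with transcripts of both sexes, and without it the highest ratio was 1.74, in Isl1CKO 6.

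Mrc1, the mannose receptor found on many tissue-resident macrophages, followed another pattern. It had 22, 4, 1, 71, 3 and 125 counts in Isl1CKO 1 to 6 and 434, 3, 3, 1, 4 and 7 in control 1 to 6. Control 1 alone held 66.0% of its summed CPM. In Isl1CKO 3 and control 4, where the other 9 members reached 20 to 374 counts, Mrc1 had 1 count. It was the single member whose values in the 6 libraries with most member counts overlapped with those in the other 6. The ratio of Mrc1 to Cx3cr1 counts was 1.02 (95% interval 0.887 to 1.16) in control 1 and 0.121 (0.0933 to 0.155) in Isl1CKO 4.

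The adaptors carry immunoreceptor tyrosine-based activation motifs (ITAMs) that recruit the kinase SYK. Tyrobp, which encodes DAP12, had 250, 1, 61, 1088, 0 and 240 counts in Isl1CKO 1 to 6 and 261, 0, 3, 91, 0 and 0 in control 1 to 6. Fcer1g, which encodes the common Fc receptor γ chain, had 282, 0, 95, 1155, 0 and 251 counts in Isl1CKO and 442, 2, 4, 112, 0 and 2 in control libraries. The adaptors moved together, with a ratio of Fcer1g to Tyrobp between 1.05 (95% interval 0.873 to 1.25) in Isl1CKO 6 and 1.69 (1.45 to 1.98) in control 1.

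Among the intracellular members, Aif1, which encodes the calcium- and actin-binding protein IBA1, had 69, 1, 116, 666, 0 and 129 counts in Isl1CKO 1 to 6 and 131, 0, 0, 67, 1 and 0 in control 1 to 6. Ctss, which encodes the lysosomal protease cathepsin S, had 231, 1, 92, 1351, 0 and 515 counts in Isl1CKO and 728, 3, 2, 133, 1 and 1 in control libraries. Neither gene exceeded 3 counts in any of the 6 libraries with few member counts.

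Levels of different genes were compared per kilobase of annotated exon. In Isl1CKO 4 the order in CPM per kilobase was C1qb at 165, Tyrobp at 122, Fcer1g at 98.7, C1qc at 81.9, Ctss at 74.3, C1qa at 70.4, Aif1 at 32.5, Csf1r at 10.0, Cx3cr1 at 9.71 and Mrc1 at 0.832. In control 1 the order was C1qb at 81.7, Ctss at 44.5, Fcer1g at 42.0, C1qc at 32.8, Tyrobp at 32.5, C1qa at 26.9, Csf1r at 10.7, Cx3cr1 at 7.87, Aif1 at 7.10 and Mrc1 at 5.66. C1qb led and Mrc1 was last in both libraries, while Tyrobp and Ctss exchanged places. Each gene's own level varied 8.33-fold (C1qb) to 29.5-fold (Cx3cr1) among the 6 libraries rich in member counts, and 487-fold for Mrc1. Reads of genes that overlap another gene, as Csf1r, Cx3cr1, Mrc1 and Ctss do in the annotation, are less certain because the use of strand in counting is not stated.

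The members were compared with each other over the 12 libraries as log2(CPM + 1). Across the 36 pairs without Mrc1, Pearson's r ran from 0.911 to 0.996 (permutation p at most 0.00018, Benjamini-Hochberg adjusted over all 45 pairs at most 0.000225) and Spearman's rho from 0.781 to 0.952 (adjusted permutation p at most 0.00507). Without the 2 libraries farthest from the median, chosen for each pair by the gene that comes first in the opening list, r was between 0.873 and 0.997 for these pairs. Libraries with few and with many member counts remained, so this range still includes the step between them. For the 9 pairs with Mrc1, r ran from 0.639 to 0.840 (permutation p at most 0.018) and rho from 0.406 to 0.587, and 0 of the 9 rank correlations passed after adjustment (smallest adjusted permutation p = 0.0603). The smallest p that the 100000 permutations could give was 1e-05. The libraries with few and with many counts were separated by a gap of 2.18 in the members' mean log2(CPM + 1), out of a range of 5.91. The median r of the 45 pairs was 0.954 over all 12 libraries and 0.965 without Isl1CKO 2, 3 and 5. Within the 6 libraries with most member counts, a comparison added after the values were seen, r had a median of 0.873 and ran from 0.369 to 0.984. Of the 45 pairs, 25 passed there in an exact permutation test with adjustment, and 0 of the 9 with Mrc1 did.

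The members did not keep a fixed proportion. As a share of all member counts in the 6 libraries with at least 100 of them, C1qa was steadiest, from 6.20% in Isl1CKO 6 to 8.75% in Isl1CKO 4, followed by C1qb, from 18.6% in Isl1CKO 1 to 29.7% in control 4. Csf1r ranged from 2.18% (95% exact interval 1.46 to 3.11) in Isl1CKO 3 to 13.9% (13 to 14.9) in control 1, a 6.39-fold difference. Cx3cr1 ranged from 2.04% (1.25 to 3.13) in control 4 to 11.1% (10.1 to 12.2) in Isl1CKO 6. Aif1 ranged from 2.46% (2.06 to 2.91) in control 1 to 8.70% (7.24 to 10.3) in Isl1CKO 3, and Mrc1 from 0.0750% in Isl1CKO 3 to 8.14% in control 1. Isl1CKO 3 set several of these limits. Without it, the lowest share of Csf1r was 6.39% (Isl1CKO 6), a 2.18-fold range, the highest share of Aif1 was 6.84% (control 4) and the lowest share of Mrc1 was 0.102% (control 4). The shares of Ctss then varied 1.25-fold in place of 2.08-fold, and the range of Cx3cr1 was the same. In total, 8 of the 10 members varied more than 2-fold in share, 7 did when only libraries with at least 1000 member counts were used, and 6 did without Isl1CKO 3. The values without Isl1CKO 3 were added after the data were seen.

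**Figure D2:**
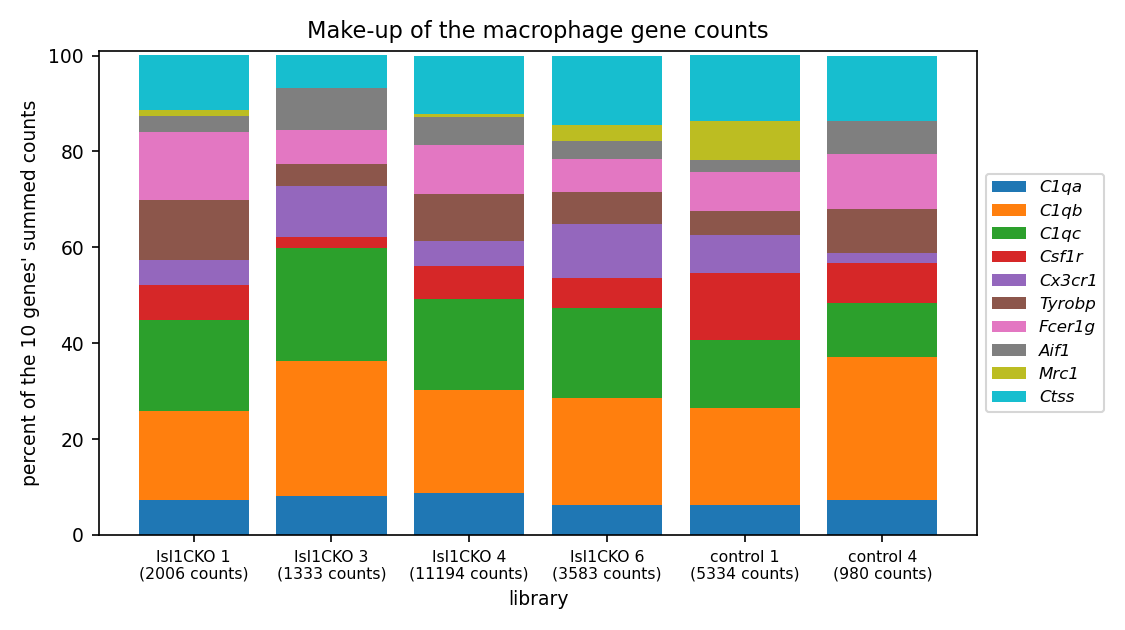
Each macrophage gene as a percent of the summed counts of the 10 genes (vertical axis) in the 6 libraries with at least 100 such counts. Csf1r and Mrc1 took their largest shares in control 1 (13.9% and 8.14%), and Cx3cr1 took its largest in Isl1CKO 6 (11.1%).

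To find the genes whose pattern over libraries was most like that of the members, each gene's CPM was divided by its sum over the 12 libraries, and the overlap with the mean profile of the members was taken in percent, 100% being identical profiles. For a member, the mean of the other 9 was used. The members overlapped by 95.9% (Ctss) down to 77.4% (Aif1), with Mrc1 at 49.8%. Their median was 86.5%, and 87.2% without Isl1CKO 2, 3 and 5. The median of 15969 other genes with at least 100 counts was 41.3%, and their 99th percentile was 64.5%. Of these genes, 64 reached the 77.4% of Aif1. The 15 highest were Apoe, which encodes a lipid carrier (96.1%), Ms4a6d (94.1%), the high-affinity IgG receptor gene Fcgr1 (92.0%), Fcrls (90.5%), Adgre1, which encodes the macrophage antigen F4/80 (89.8%), Ms4a6b and Laptm5 (88.6% each), Spi1 and Trem2 (88.3% each), Selenop (88.2%), Fcgr3 (88.0%), Sla (87.5%), Ms4a4a (87.4%), Lcp1 (86.7%) and Lst1 (86.3%). Most are known from macrophages and other leukocytes. Apoe was far more abundant than any member, with 9014 counts in Isl1CKO 4 and 5348 in control 1, but it retained 113 and 148 counts in Isl1CKO 2 and 5, where the 10 members together had 17 and 12.

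**Figure D3:**
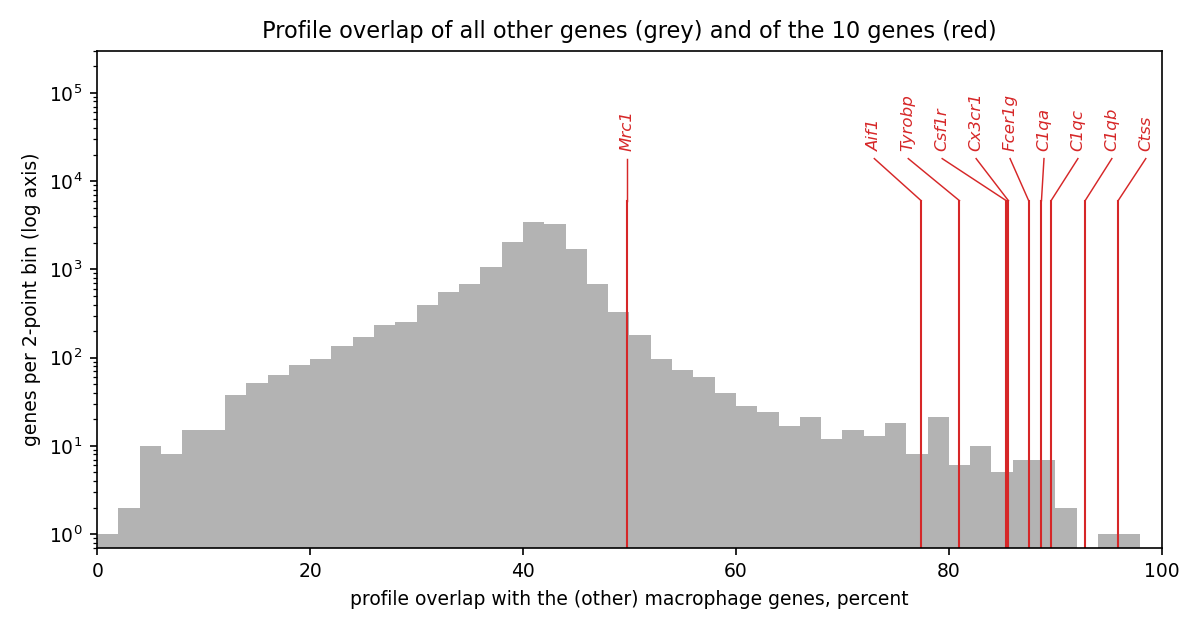
Distribution of profile overlap in percent (horizontal axis) for 15969 other genes (grey bars, number of genes on a log axis) and for the 10 macrophage genes (red lines). Of the 10, 9 lie at or above 77.4%, and Mrc1 lies at 49.8%.

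Other genes of the lineage behaved in several ways. Of a list of 30 general macrophage genes, 28 had enough counts for a profile, and 16 of these reached the 77.4% overlap of Aif1. Trem2, a lipid-sensing receptor that signals through TYROBP, had 78, 0, 40, 436, 0 and 180 counts in Isl1CKO 1 to 6 and 146, 0, 0, 19, 0 and 0 in control 1 to 6. Spi1 had 22, 0, 22, 223, 0 and 97 counts in Isl1CKO and 79, 1, 1, 20, 1 and 1 in control libraries. These genes thus followed the step seen in the members. Cd68 (83.0%), a lysosomal glycoprotein, and Ptprc (79.3%), which encodes the leukocyte antigen CD45, also had high overlaps, but both had 5 or more counts in every library.

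Of 16 genes typical of tissue-resident macrophages, 12 had a profile and 3 reached 77.4%, namely Ms4a7 (83%), Ms4a6c (80.9%) and Stab1 (77.8%). Pf4, a chemokine gene, had 43, 0, 0, 64, 1 and 45 counts in Isl1CKO 1 to 6 and 232, 0, 0, 0, 0 and 1 in control 1 to 6. F13a1, which encodes a coagulation factor subunit, had 4, 11, 8, 254, 1 and 114 counts in Isl1CKO and 583, 8, 7, 26, 40 and 17 in control libraries. Control 1 was thus the highest library for both, as it was for Mrc1. It was the highest for 6 of the 12 genes of this list, for 3 of 9 microglial genes (described below) and for 5 of 28 general macrophage genes. Set against the profile of Mrc1 itself, Pf4 overlapped by 86.5%, the endocytic adaptor gene Dab2 by 84.4% and F13a1 by 80.2%. The other 9 members overlapped with Mrc1 by 36.4% (Aif1) to 63.8% (Csf1r). Control 1 alone held 62.1% of the summed CPM of Pf4, 66% of Dab2 and 56.7% of F13a1, so most of these 3 overlaps came from that library. Others of the same list overlapped little with Mrc1, among them Clec4n (10.3%), Cd36 (16.4%) and Igfbp4 (30.2%). The general macrophage genes Msr1 (76.8%) and Cd14 (75.4%) and the microglial genes Siglech (70.5%) and P2ry13 (68.1%) overlapped more than most of that list. This comparison with Mrc1, and the genes named for it, were chosen after the values were seen. Lyve1, a hyaluronan receptor gene, reached 49 counts in control 1 and 20 in control 4 and was at 4 or fewer in the other libraries. Cd163 had 3 to 20 counts in every library, with its highest value in control 6 and a low overlap of its own.

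Of 10 microglial genes, 9 were in the table and 1 reached 77.4%. That gene was P2ry13 (79.7%), with 133 counts in Isl1CKO 4, 36 in Isl1CKO 6, 132 in control 1 and 5 or fewer elsewhere. P2ry12, a purinergic receptor gene, had 47, 0, 151, 124, 2 and 4 counts in Isl1CKO 1 to 6 and 252, 2, 10, 7, 1 and 3 in control 1 to 6. It was low in Isl1CKO 6 although that library held 3583 member counts. Tmem119 had 49 counts in Isl1CKO 3, 63 in Isl1CKO 4 and 11 or fewer elsewhere, with 0 in control 1. Sall1 was at 7 to 17 counts in every library and did not follow the members.

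Ligands and several partners of the members had few counts. Csf1, a ligand of CSF1R, had 46 counts in Isl1CKO 1, 54 in control 3 and 10 or fewer elsewhere. Cx3cl1, the ligand of CX3CR1, had at most 20 counts in any library, and Il34 was not analysed here. Itgam and Itgb2, the chains of complement receptor 3, had at most 15 and 19 counts, and C3, the central complement component, had 0 to 35 counts. C3 was at 0 in Isl1CKO 1 and in Isl1CKO 4 and control 1, the libraries with most C1q. In Isl1CKO 3, Isl1CKO 6 and control 4, which also held many C1q counts, it had 35, 28 and 19. Syk had 54 counts in Isl1CKO 4, 22 in Isl1CKO 2 and 17 or fewer elsewhere. Other partners were more abundant, such as Trem2, at 9.24 CPM on average in Isl1CKO and 2.26 CPM in control libraries, and the complement regulator gene Serping1, at 37.5 and 21.3 CPM.

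The summed markers of other cell types did not follow the members. Schwann and satellite glia markers, 12 genes such as Sox10, summed to 496 CPM in Isl1CKO 2 and 399 CPM in Isl1CKO 5, where the members summed to 1.32 and 0.875 CPM. They summed to 17.7 CPM in Isl1CKO 6, where the members summed to 273 CPM. Of 12 endothelial markers 11 were in the table, and they summed to 36.1 CPM in Isl1CKO 3 and to 1.75 to 7.68 CPM in the other libraries. Markers of monocytes and neutrophils summed to at most 8.32 CPM except in Isl1CKO 6, at 17.7 CPM, of which Ccr2, a chemokine receptor gene of monocytes, contributed 106 counts against 3 or fewer in every other library. Mesenchyme markers summed to 38.6 to 122 CPM, erythroid markers to 1.01 to 5.87 CPM and lymphocyte and mast cell markers to 0.991 to 7.31 CPM. These sums rest on 10 of 10 listed mesenchyme genes but on only 2 of 11 erythroid, 5 of 11 lymphocyte and mast cell and 4 of 11 monocyte and neutrophil genes, and the other listed genes were not analysed here. Single genes also weighed heavily in some sums. Prtn3, a monocyte and neutrophil gene, had 33 to 112 counts in every library. Csf3r of the same list was nearer to the members, with an overlap of 73.7%. It had 24 to 45 counts in Isl1CKO 3, 4 and 6 and control 1, and 2 or fewer elsewhere. Of the mesenchyme genes, Tbx18 averaged 39.5 CPM in Isl1CKO and 1.09 CPM in control libraries, and Pou3f4 averaged 27.4 and 52.9 CPM. The part of any of these cell types in the results was not tested.

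**Figure D4:**
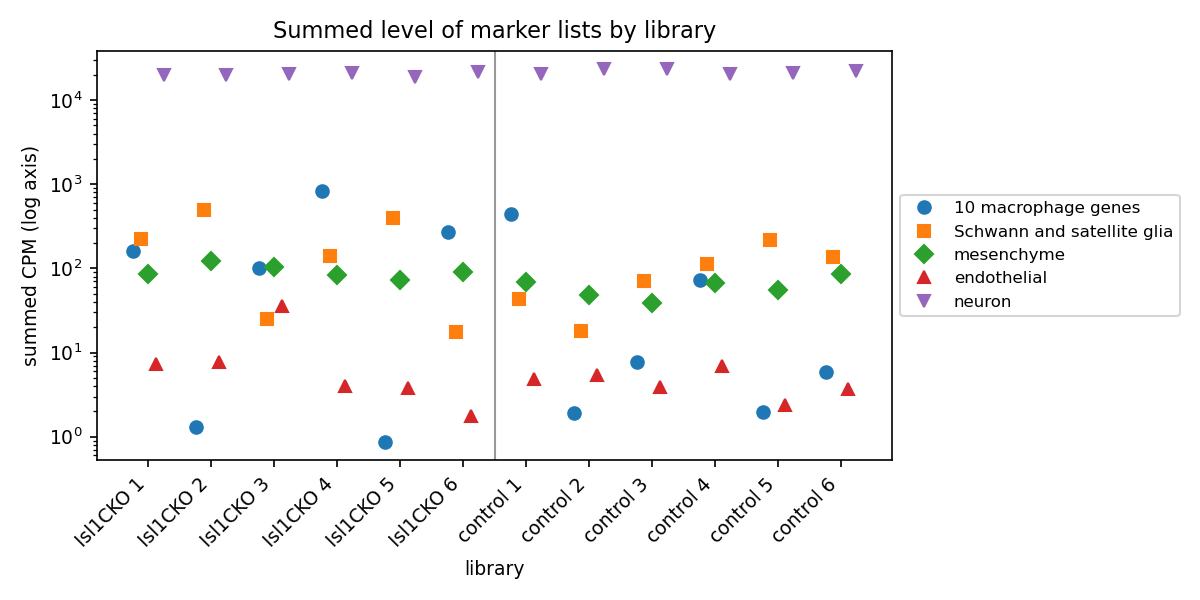
Summed CPM of marker lists (vertical axis, log scale) in the 12 libraries (horizontal axis), one symbol and colour per list. The macrophage genes span 0.875 to 836 CPM and do not move with the Schwann cell markers, while the neuron markers stay between 18967 and 23139 CPM.

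The comparison of genotypes asks whether the level of the macrophage genes went with the loss of Isl1. The summed level averaged 228 CPM in Isl1CKO and 88.9 CPM in control libraries, and 423 CPM in Isl1CKO without libraries 2, 3 and 5. The ranges of the groups, 0.875 to 836 CPM and 1.92 to 443 CPM, overlapped almost fully. Without Isl1CKO 4 the Isl1CKO mean was 107 CPM, and without control 1 the control mean was 18.0 CPM, so single libraries carried much of both means.

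None of the members passed edgeR's quasi-likelihood test. Of the 9 with enough counts to be tested (Mrc1 did not pass the filter), 0 were called at an adjusted p of 0.05 and 0 had an unadjusted p under 0.05, beside 10.2% of 14813 genes called in this comparison (5.01% higher and 5.19% lower in Isl1CKO) and 23.3% with an unadjusted p under 0.05. DESeq2 and limma-voom also called 0 of the 9, against 14.2% and 12.0% of all genes. The fitted log2 fold changes of the 9 were all above 0, with a median of 1.57 against 0.0045 for all genes tested, but the groups overlapped for all 9, beside 6.78% of all genes tested whose groups did not overlap. With no expression filter 0 of the 10 were called, against 5.36% of all genes. Aif1 had the largest, at 2.21 (SE 1.53; edgeR adjusted p = 0.426), with 12.3 ± 18.8 CPM in Isl1CKO and 2.65 ± 4.49 CPM in control libraries (SD, n = 6). Tyrobp followed at 2.12 (SE 1.66; edgeR adjusted p = 0.499), and the C1q genes had 1.72 (C1qa, SE 1.65), 1.28 (C1qb, SE 1.39) and 1.88 (C1qc, SE 1.70). Csf1r had the smallest, at 0.39 (SE 1.68; edgeR adjusted p = 0.921). The standard errors of 1.37 to 1.70 compare with a median of 0.235 over all genes. The 95% intervals were wide, from -1.52 to 4.96 for C1qa and from -0.78 to 5.20 for Aif1 on the log2 scale. They were taken from the standard error by a normal approximation and are narrower than the F-test would give. Since these 9 members moved together, their common sign is not a set of 9 independent observations. Mrc1 did not share that sign, with a log2 fold change of -1.14 (SE 1.4) when no expression filter was applied.

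These values turned on single libraries. Without control 1, the log2 fold changes of the 9 ran from 2.85 (C1qb) to 4.89 (Cx3cr1) and Cx3cr1 passed the test (edgeR adjusted p = 0.0172). Without Isl1CKO 4, they ran from -0.85 (Csf1r) to 0.86 (Aif1), and 0 passed. Without Isl1CKO 2, 3 and 5, all 10 members were tested, their median was 2.32 and 0 passed, the smallest edgeR adjusted p being 0.324. Mrc1 was the single member below 0 in that fit, at -0.18.

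**Figure D5:**
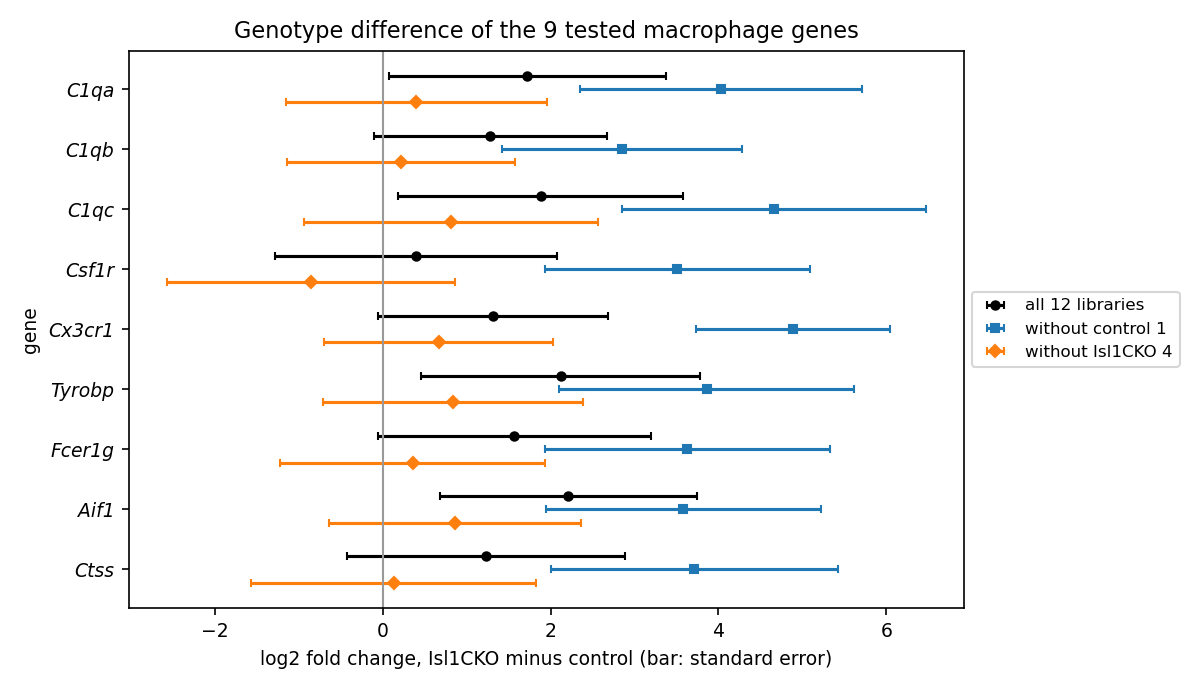
Fitted log2 fold changes (Isl1CKO minus control, horizontal axis) of the macrophage genes that were tested, with all 12 libraries, without control 1 and without Isl1CKO 4. Points are the fitted values and bars 1 standard error. The values of 0.39 to 2.21 with all libraries move to 2.85 to 4.89 without control 1 and to -0.85 to 0.86 without Isl1CKO 4.

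Related genes gave few calls. In the lists of general macrophage genes and of tissue-resident macrophage genes, 0 of 20 and 0 of 6 tested genes passed, with median log2 fold changes of 1.33 and -0.37. DESeq2 and limma-voom likewise called 0 in both lists, and 2 and 0 of these genes had an unadjusted edgeR p under 0.05. Of 5 microglial genes tested, 1 rose in Isl1CKO. This was Olfml3, which encodes a secreted olfactomedin-like protein, with 321, 333, 97, 435, 519 and 292 counts in Isl1CKO 1 to 6 and 132, 52, 74, 126, 116 and 78 in control 1 to 6. Its log2 fold change was 1.74 (SE 0.35; edgeR adjusted p = 0.0042), and its profile did not resemble that of the members, with an overlap of 49.6% and its highest count in Isl1CKO 5, where the members were lowest. Of 17 genes of phagocytosis and the lysosome tested, 2 rose, a share near the 10.2% of all tested genes that were called. Lipa, the lysosomal acid lipase gene, was at 50.2 ± 11.4 CPM in Isl1CKO and 28.1 ± 4.99 CPM in control libraries (SD, n = 6; log2 fold change 0.84, edgeR adjusted p = 0.00526). Lamp2, a lysosomal membrane protein gene, was at 134 ± 23.1 and 97.1 ± 13.9 CPM (SD, n = 6; log2 fold change 0.46, edgeR adjusted p = 0.0312), and it lost the call without Isl1CKO 2, 3 and 5 (edgeR adjusted p = 0.101). Both are made by most cells. Their overlaps with the members were 46.2% and 45.2%, near the median of all genes. Among the other complement genes, the partners of ITAM adaptors and the genes of MHC class II, 0 of 6, 0 of 5 and 0 of 2 tested genes passed in edgeR, and 1, 0 and 1 had an unadjusted p under 0.05. DESeq2 and limma-voom also called Serping1, which encodes the C1 inhibitor of the complement cascade.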

How the data were processed

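The authors deposited raw counts in a single table of 25674 Ensembl genes by 12 libraries. The submitters' processing notes name cutadapt 1.18, Bowtie 1.2.2, STAR 2.7.0c, featureCounts and GRCm38.p6; strand and annotation are not given in the sources used here. Column names gave the genotype and number of each library, and 0 columns were unmapped. Symbols matched 25620 genes, and coordinates and exon lengths came from GENCODE M21 on GRCm38. The table's smallest gene total was 10 counts.

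Counts were tested with edgeR 4.0.16 (R 4.3.3): filterByExpr with a minimum count of 10, TMM scaling, robust quasi-likelihood F-test without covariates, and Benjamini-Hochberg adjustment over 14813 genes at 0.05. CPM values are TMM-scaled. DESeq2 1.42.0 and limma 3.58.1 (voom) were alternatives. The scripts were tested on simulated data. Correlations used permutation tests and ratios exact binomial intervals at 95%. Members, gene lists and the rule for naming genes were chosen with earlier results of these data known. That rule took all members, the 15 genes of highest profile overlap, list genes past the threshold and fixed partner genes.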

Additional observations from a re-analysis of the deposited data

Results flagged for a closer look

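For the 10 genes and their sum, the highest or lowest library of each genotype was compared with the rest by Dixon's criterion on CPM, in 22 groups of 6 libraries. Isl1CKO 4 or control 1 stood too far above the others in 18 of the 22. For normally distributed values, chance gives about 1 in 20, or 1.1 of 22. Here the SD of the 10 genes was 112% (Cx3cr1 in Isl1CKO) to 234% (Mrc1 in control) of the mean, so the 18 cannot be set against that rate. The genes also move together, and these groups are not independent.

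Isl1CKO 4 stood apart from the other Isl1CKO libraries for C1qa at 73.2 CPM, C1qb at 180 CPM, C1qc at 158 CPM, Csf1r at 57.9 CPM, Tyrobp at 81.3 CPM, Fcer1g at 86.3 CPM and Aif1 at 49.7 CPM, and for the sum of the 10 genes at 836 CPM. The next highest sum was 273 CPM, in Isl1CKO 6. Control 1 stood apart from the other controls for C1qa at 28.0 CPM, C1qb at 88.9 CPM, C1qc at 63.3 CPM, Csf1r at 61.6 CPM, Cx3cr1 at 35.5 CPM, Tyrobp at 21.7 CPM, Fcer1g at 36.7 CPM, Mrc1 at 36.1 CPM and Ctss at 60.5 CPM, and for the sum at 443 CPM, against 72.6 CPM in control 4. The exceptions were Cx3cr1, Mrc1 and Ctss in Isl1CKO and Aif1 in control libraries.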

How the results depend on the processing

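With all 12 libraries, 0 of the tested members passed with limma-voom, with the DESeq2 Wald test or its size factors, without robust estimation, without an expression filter or with one set at a mean of 5 CPM. Leaving out 1 library at a time gave 0 to 1 members called (Cx3cr1 without control 1), 1 to 4 other macrophage genes (Olfml3 throughout, with C3ar1, Gpr34 and Lyz2 added without control 1) and 1 to 3 partner genes, against 2 with all libraries. Without Isl1CKO 2, 3 and 5 the partner genes called were 1 (Lipa), and 767 of all genes passed against 1511, with fewer samples. Limma-voom reversed C1qb to -0.0114 and C3 to -0.75; the cause was not tested. The leave-one-out range of the log2 fold change was -0.85 to 3.51 for Csf1r, negative without Isl1CKO 4, and -2.14 to 1.70 for F13a1, positive without control 1. The mean summed CPM ranged from 107 to 274 in Isl1CKO and from 18.0 to 106 in control libraries. Lamp2 lost its call in 7 of the 12 fits that left out 1 library.

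With the replicate number as a block, 0 members passed, their log2 fold changes ran from 1.23 to 4.08 with a median of 3.15 against 1.57, and 6 of 9 had an unadjusted p under 0.05, against 0 without the block. Without control 1, also 6 of 9 did. The share of all genes with an unadjusted p under 0.05 is not given for either of these fits, and it was 23.3% in the main edgeR fit. Since the members move together, these 6 are not independent. Same-numbered libraries correlated at -0.056 to 0.152 in their deviations, and 2 of 6 pairs matched best with their own number, so the numbers were not taken to pair the samples. No call named in the text was lost under the block.

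Of the 15 genes with the highest profile overlap, 15 stayed among them at a minimum of 30 counts and 11 with the summed CPM of the members as reference. Depth set a floor of 0.216 to 0.252 CPM, below which levels in the 6 libraries with few counts could not be resolved.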

Other observations

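Some genes of the macrophage and partner lists were found in fewer libraries than most of the 10 members. Cd14, a co-receptor for lipopolysaccharide, had 64 counts in Isl1CKO 6, 81 in control 1 and 0 in the other 10 libraries, including Isl1CKO 4 with its 11194 member counts. Clec4n, a C-type lectin receptor gene, had 133 counts in Isl1CKO 4 and 3 or fewer elsewhere. Msr1, a scavenger receptor gene, had 63 counts in control 1 and 8 or fewer elsewhere. Cd74, the MHC class II invariant chain gene, had 69 counts in control 1, 19 in Isl1CKO 6, 17 in control 3, 15 in Isl1CKO 4 and 0 or 1 elsewhere. Cathepsin genes differed from one another: Ctsh had 83, 329, 242 and 107 counts in Isl1CKO 1, 4 and 6 and control 1 and 2 or fewer elsewhere, whereas Ctsb had 1826 to 7774 counts in every library, highest in Isl1CKO 4. These genes were chosen after their values were seen, and no test was run on them.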
